A study of Danio rerio with 4 samples.

Results

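The nuclear genes of the mitochondrial respiratory chain and ATP synthase were followed in developing zebrafish retinas with and without the id2a morpholino. Genes were taken by name from the authors' comparison table, where the symbol, with case ignored and any copy suffix dropped, began with nduf, uqcr, cox4 to cox8, sdha to sdhd or atp5, or was cyc1. The rule found 97 of 26355 genes, with 170 of 46226 transcripts. Complex I had 46 of the genes, complex II had 7, complex III had 9, complex IV had 18 and complex V had 17. Of the 97, 89 were counted as subunits of the complexes by their names. Among them are cox7a2l and the NDUFA4L2 copies, whose place in a complex was not checked. The other 8 names are assembly factors or proteins of another kind: ndufaf1, ndufaf2, NDUFAF3, NDUFAF4, SDHAF1, SDHAF2, cox4nb, which has the newer symbol EMC8, and atp5s, which has the newer symbol DMAC2L.

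The 4 poly-A RNA libraries came from dissected retinas at 48 hours post fertilization, with 1 microgram of total RNA for each condition. The control group of 2 libraries carried the Id2aMM morpholino, and the knockdown group of 2 libraries carried the id2a morpholino. Morpholinos are synthetic antisense oligomers that bind an RNA and stop it from being translated or spliced. The series design calls the samples of a group biological replicates, and the labels give neither the fish strain nor the number of embryos behind a library.

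The respiratory chain sits in the inner mitochondrial membrane. Complexes I and II pass electrons from NADH and succinate to ubiquinone, complex III passes them to cytochrome c, and complex IV passes them to oxygen. Complexes I, III and IV pump protons as they do so, and complex V, the ATP synthase, uses the returning protons to make ATP. Complex II is encoded wholly by nuclear genes, whereas the other complexes also contain subunits encoded in mitochondrial DNA. The vertebrate retina is among the tissues with the highest demand for oxygen, and photoreceptors hold dense stores of mitochondria.

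Libraries held 42980929 to 54710062 counts of 1 mate, with every alignment counted in full. Across transcripts, which are not independent, log2 levels correlated at 0.967 between the controls, at 0.964 between the knockdown libraries and at 0.849 to 0.929 between groups. The most abundant id2a transcript stood at 82.3 and 59.5 CPM (counts scaled by the library total) in the controls, against 84.8 and 70.6 CPM in the knockdown group, so RNA level gave no check of the labels. Of the tested markers 6 of 10 for photoreceptors, 7 of 10 for neurons and 11 of 14 for epidermis were called lower. For lens 9 of 11 and for progenitors 3 of 7 were called higher. By the same test, described below, 5.7% of all genes were called lower and 2.37% higher. In dissected tissue, a change in the number of cells of a type and a change in RNA per cell cannot be told apart. Lens and epidermis are not parts of the retina, and the share of such tissue in each library was not tested.

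Most respiratory chain and ATP synthase genes had somewhat higher levels in the knockdown libraries than in the controls, but few differed beyond the spread that the test allowed. Of 94 genes with enough counts to test, 3 rose (NDUFA13, atp5g and atp5j), 1 fell (ndufa4) and 90 did not pass. A gene counted as called where at least 1 of its transcripts had an adjusted p under 0.05 in edgeR's quasi-likelihood test with Benjamini-Hochberg adjustment over all transcripts. By that rule 8.06% of all 20875 tested genes were called, 2.37% higher and 5.7% lower. The shares of the members that were called thus lay near the background for higher calls and below it for lower ones. The median log2 fold change over the 94 genes was 0.34, against -0.04 over all tested genes. It was above 0 in 83 genes, or 88.3%, against 47.7% of all genes.

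The same lean was seen in the plain library values of the most abundant transcript of each gene. In 62 of 94 genes both knockdown libraries lay above both controls, against 29.8% of all genes. In 6 of 94 genes both lay below, against 32.3% of all genes. For counts at an unadjusted p, each gene was instead taken at its transcript with the smallest p. On that basis p was under 0.05 for 21 members on the higher side and for 2 on the lower side. Of all genes, taken in the same way, 12.9% and 17.9% had such a p. On the same counts DESeq2 called 11 members higher and 2 lower, where it called 6.23% and 9.64% of all genes. limma on the authors' scores called 0 members with a pseudocount of 1, where it called 2.41% of all genes, and 7 with a pseudocount of 100, where it called 9.42%. The members share 4 libraries and are not independent of each other, so these counts describe the libraries and carry no p of their own.

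**Figure D1:**
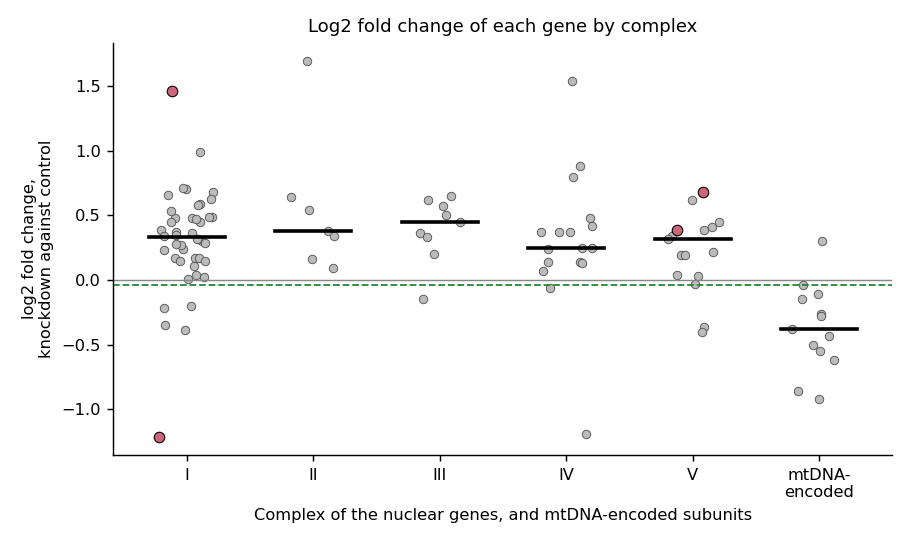
Log2 fold change of knockdown against control for the most abundant transcript of each tested gene (points), grouped by complex I to V and by the genes of mitochondrial DNA. Red marks genes with at least 1 transcript at an adjusted p under 0.05 by edgeR. For atp5g and atp5j, drawn at 0.39 and 0.68, the transcript that passed is another one. Black bars show medians, and a dashed green line shows the median of all genes. Medians of the nuclear genes lie between 0.25 and 0.45 in the 5 complexes, and the mitochondrial DNA genes have a median of -0.38.

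All 5 complexes had medians above 0. The median log2 fold change was 0.33 in complex I, 0.38 in complex II, 0.45 in complex III, 0.25 in complex IV and 0.32 in complex V. Without the assembly factors and other proteins it was 0.32 in complex I, 0.34 in II, 0.31 in IV and 0.33 in V. Values above 0 were found in 39 of 44 genes of complex I, 7 of 7 of complex II, 8 of 9 of complex III, 15 of 17 of complex IV and 14 of 17 of complex V. Of all genes, 47.7% had a value above 0. Complex III had the largest share of genes with both knockdown libraries above both controls, 8 of 9, and complex IV the smallest, 8 of 17. Over all genes that share was 29.8%. Complex I had 31 such genes of 44, complex II had 5 of 7 and complex V had 10 of 17. The differences between the complexes' medians were not tested. The median of complex IV was 0.11 without control 1 and 0.43 without control 2, that of complex V was 0.17 without knockdown 1, and that of complex III was 0.30 without control 1.

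Within the larger complexes, the median was 0.47 over the 7 tested nuclear core genes of complex I and 0.30 over its 33 accessory genes. These core genes belong to the part that carries out electron transfer, and the complex I genes of mitochondrial DNA are not among them. In complex V the median was 0.41 over the 5 genes of F1, the catalytic head, and 0.22 over the 11 genes of the membrane part and stalk. The differences between these parts were not tested. All 7 nuclear core genes and all 5 F1 genes had log2 fold changes above 0, against 47.7% of all genes. The 8 assembly factors and other proteins had a median of 0.37 and 0 calls by edgeR. At an unadjusted p under 0.05, 1 of them was higher, against 12.9% of all genes.

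The lean differed in size between libraries. For the 89 members averaging at least 2 CPM, the median log2 ratio to the control mean was -0.13 in control 1, 0.13 in control 2, 0.41 in knockdown 1 and 0.25 in knockdown 2. The same medians over 14477 genes were 0.01, -0.01, 0.03 and 0.04. The controls lie on either side of 0 by construction, and knockdown 2 lay closer to control 2 than to control 1. The replicate SD of the median was 0.15 over all members and ran from 0.109 in complex II to 0.18 in complex IV.

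In each complex the library order was the same. Control 1 was lowest and control 2 next, and knockdown 1 was the highest. Over the 4 subunit genes of complex II alone, without its assembly factor, knockdown 2 was instead the highest. Those medians were -0.15 and 0.15 in the controls, 0.23 in knockdown 1 and 0.29 in knockdown 2. The step from control 2 to knockdown 2 was widest in complex III, from 0.15 to 0.39, and in complex I, from 0.09 to 0.26. In complex IV it ran only from 0.16 to 0.19, and in complex V from 0.14 to 0.18, both less than the replicate SD of those medians.

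**Figure D2:**
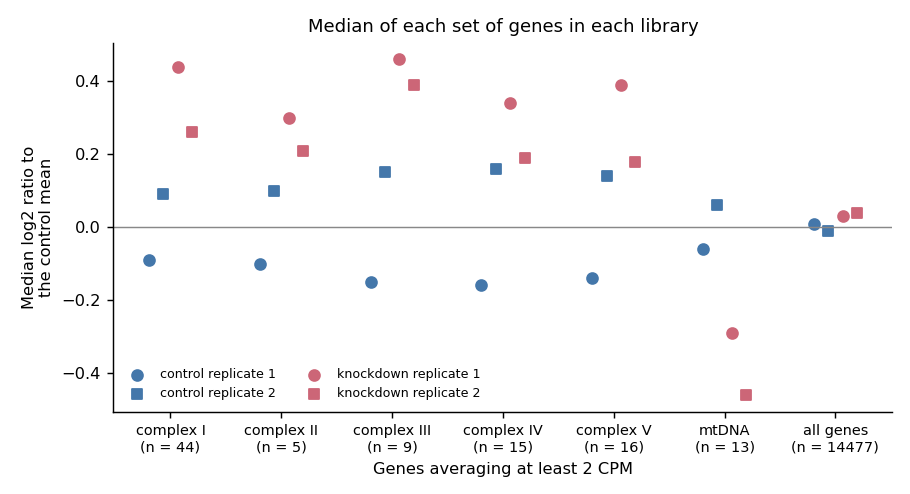
Median log2 ratio to the mean of the controls in each library (vertical axis), for genes averaging at least 2 CPM in each complex, in mitochondrial DNA and in all genes; blue is control, red is knockdown, circles are replicate 1 and squares replicate 2. Both knockdown medians lie above both control medians in every complex, by as little as 0.03 in complex IV, and below them for the mitochondrial DNA genes.

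As a share of all reads, with each read split over the transcripts it hits, the 97 genes took 0.736% and 0.867% in the controls and 1.08% and 1.01% in the knockdown libraries. Complex V took the most, with 0.330% and 0.385% against 0.486% and 0.452%. Complex I, with far more genes, took 0.174% and 0.203% against 0.257% and 0.239%. Complex IV took 0.130% and 0.157% against 0.183% and 0.167%, and complex III took 0.0771% and 0.0947% against 0.122% and 0.116%. Complex II took the least, 0.0248% and 0.0264% against 0.0344% and 0.0334%. The groups did not overlap in any complex.

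Per length, the members were far above the typical gene. The median mean level over the 4 libraries was 36.6 RPKM, the reads of both mates scaled by transcript length and library total, for the members and 2.79 for all tested genes. By complex the median was 102.1 RPKM in V, 53.8 in IV, 52.4 in III, 26.9 in I and 14.3 in II. Within complex III levels spanned a 6.24-fold range. Among tested subunit genes, those of complex V spanned a 5.76-fold range and those of complex I a 19.2-fold range. Each gene was taken at its transcript with the most counts. Other transcripts of a gene could be higher or lower per length, so ranks, medians and ranges depend on that choice. Complexes I, II and IV also held copies that were almost silent, among them ndufs8b and NDUFA4L2 (2 of 2), which were too low to test, and sdhda.

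Complex I takes electrons from NADH. Of its 44 tested genes 1 rose, 1 fell and 42 did not pass, where 2.37% of all genes rose and 5.7% fell. NDUFA13, an accessory subunit also known as GRIM-19, stood at 2.16 and 1.66 CPM in the controls, against 6.15 and 4.42 CPM in the knockdown group. Both knockdown libraries were well above both controls, at a low level. NDUFA13 rose by 1.46 on the log2 scale (SE 0.33, adjusted p = 0.0418, edgeR).

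The gene ndufa4 (ENSDARG00000056108), with the newer symbol ndufa4b, was the one member that fell. The name places it in complex I, though its mammalian product is now counted as a subunit of complex IV. It stood at 8.82 and 8.65 CPM in the controls, against 3.29 and 4.24 CPM in the knockdown group. The controls were close together and the knockdown libraries were both below them. It fell by 1.21 on the log2 scale (SE 0.27, adjusted p = 0.0413, edgeR).

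Among the remaining complex I genes, ndufs5 and NDUFC2 had the highest levels per length, at means of 71.6 and 68.8 RPKM. The rank of NDUFC2 came from knockdown 1, with 51.0 and 36.6 RPKM in the controls against 140.1 and 47.6 RPKM. NDUFC2, a subunit of the membrane arm, stood at 12.9 and 12.5 CPM against 33.3 and 17.4 CPM, so that 1 knockdown library was far above the other. Its log2 fold change was 0.99 (SE 0.32, adjusted p = 0.0975, edgeR). The NADH-binding subunit gene ndufv1 stood at 96.1 and 108.0 CPM against 145.8 and 136.1 CPM, and the iron-sulfur subunit gene ndufs1 at 49.6 and 69.8 CPM against 88.7 and 95.4 CPM. Both had knockdown libraries above controls, and neither passed the test, with adjusted p-values of 0.189 and 0.138 by edgeR.

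Further accessory genes of complex I with wide gaps between groups were NDUFB3, ndufa6, NDUFAB1 (2 of 2) and ndufa12. NDUFB3 stood at 18.8 and 14.5 CPM against 26.3 and 28.2 CPM, and ndufa6 at 39.6 and 31.3 CPM against 58.3 and 55.0 CPM. NDUFAB1 (2 of 2), a copy of the mitochondrial acyl carrier protein, stood at 15.3 and 20.9 CPM against 32.0 and 26.6 CPM. None of these passed by edgeR, with adjusted p-values of 0.106 for NDUFB3, 0.102 for ndufa6, 0.126 for NDUFAB1 (2 of 2) and 0.15 for ndufa12. They were named after their values were seen. Besides ndufa4, both knockdown libraries lay below both controls in NDUFA1, NDUFB1 and the assembly factor gene ndufaf2. Of the 46 genes 2 could not be tested: ndufs8b had 2 and 15 counts against 4 and 1, and NDUFA4L2 (2 of 2) had 1 and 1 counts against 0 and 0.

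Complex II, succinate dehydrogenase, also belongs to the tricarboxylic acid cycle. None of its 7 genes was called by edgeR, and 2 had an unadjusted p under 0.05, both on the higher side, against 12.9% of all genes. Of these, sdha had it only in a less abundant transcript (ENSDART00000137654, unadjusted p = 0.0257, edgeR). DESeq2 and limma at both pseudocounts also called 0. The iron-sulfur subunit gene sdhb, its most abundant member per length at 68.5 RPKM, stood at 70.8 and 47.6 CPM against 98.8 and 85.8 CPM. The controls differed widely from each other and both lay below the knockdown libraries (log2 fold change 0.64, SE 0.25, adjusted p = 0.148, edgeR). The flavoprotein gene sdha, at 20.9 RPKM, stood at 46.1 and 52.8 CPM against 60.8 and 64.3 CPM (adjusted p = 0.342, edgeR). The membrane anchor genes sdhc and sdhdb overlapped between groups, with sdhc at 16.3 and 21.7 CPM against 20.8 and 19.9 CPM.

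Complex III receives electrons from ubiquinol. None of its 9 genes was called by edgeR, though 4 had an unadjusted p under 0.05 on the higher side, against 12.9% of all genes. Of these, uqcrc1 had it only in a less abundant transcript (ENSDART00000138930, unadjusted p = 0.0115, edgeR). DESeq2 called 3 higher, against 6.23% of all genes. limma called 0 at a pseudocount of 1 and 1 at a pseudocount of 100. In either direction limma called 2.41% and 9.42% of all genes. The cytochrome c1 gene cyc1 stood at 69.0 and 93.4 CPM in the controls, against 128.8 and 126.7 CPM in the knockdown group. The knockdown libraries agreed closely and lay above both controls. The log2 fold change of cyc1 was 0.65 (SE 0.23, adjusted p = 0.115, edgeR). Its other 3 transcripts, which share reads with it, had log2 fold changes of 1.00, 1.05 and 1.01 and adjusted p-values of 0.059, 0.0582 and 0.0602 by edgeR.

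The small complex III subunit genes uqcrh and uqcrb had its highest levels per length, at means of 126.7 and 96.6 RPKM. uqcrb stood at 39.7 and 39.4 CPM against 67.3 and 54.4 CPM, and uqcrh at 63.8 and 70.9 CPM against 109.6 and 80.9 CPM. In both genes knockdown 1 was the highest library and the groups were apart. uqcrq was the exception in complex III, at 22.8 and 26.9 CPM against 23.4 and 21.3 CPM, with overlapping groups and a log2 fold change of -0.15 (SE 0.23, adjusted p = 0.711, edgeR).

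Complex IV, cytochrome c oxidase, reduces oxygen. None of its 17 tested genes was called by edgeR. Unadjusted p was under 0.05 for 3 on the higher side and 1 on the lower, against 12.9% and 17.9% of all genes. Of these, cox6a1 had it only in a less abundant transcript (ENSDART00000145112, unadjusted p = 0.0111, edgeR). DESeq2 called 3 higher and 1 lower, against 6.23% and 9.64% of all genes. limma called 0 at a pseudocount of 1 and 1 at a pseudocount of 100. COX5B (1 of 3), a nuclear subunit on the matrix side of the complex, stood at 47.7 and 59.0 CPM against 97.5 and 98.9 CPM. The knockdown libraries were nearly equal and both well above the controls (log2 fold change 0.88, SE 0.22, adjusted p = 0.0508, edgeR). Its adjusted p was below 0.05 under 7 alternatives, from 0.00586 with DESeq2 to 0.0455 with upper-quartile scaling. It was 0.0537 with the stricter filter, 0.0616 in limma with a pseudocount of 1, 0.0759 with counts summed per gene and from 0.0819 to 0.164 when any 1 library was left out.

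The most abundant subunits of complex IV per length, cox6b2 and cox4i1 at means of 209.0 and 172.2 RPKM, differed little. cox6b2 stood at 113.2 and 113.3 CPM against 150.6 and 118.0 CPM, and cox4i1 at 121.0 and 151.4 CPM against 137.8 and 123.2 CPM. cox4i1 overlapped between groups, and its log2 fold change was -0.06 (SE 0.22, adjusted p = 0.886, edgeR). cox8a was close to level too, at 88.2 and 104.5 CPM against 107.3 and 95.1 CPM. COX7A1, the form of subunit 7A found in mammalian heart and muscle, was too low to test, with 3 and 10 counts against 19 and 7.

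Complex V makes ATP. Of its 17 genes 2 rose, both in the membrane part and stalk, 0 fell and 15 did not pass. By the same test 2.37% of all genes rose and 5.7% fell. atp5j encodes coupling factor 6, part of the stalk that holds the head in place. Its called transcript (ENSDART00000004062) stood at 28.4 and 34.6 CPM against 61.1 and 61.0 CPM. The knockdown libraries were nearly equal and well above both controls, and the transcript rose by 0.95 on the log2 scale (SE 0.22, adjusted p = 0.0439, edgeR). The most abundant transcript of atp5j stood at 49.0 and 53.4 CPM against 86.1 and 77.7 CPM, with a log2 fold change of 0.68 (SE 0.21, adjusted p = 0.0864, edgeR).

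atp5g encodes the c subunit, which forms the rotating ring in the membrane. Its called transcript (ENSDART00000133700) was a short form of 266 nucleotides at 4.33 and 5.28 CPM against 11.6 and 10.7 CPM, with 2.71 hits per read. It rose by 1.21 on the log2 scale (SE 0.26, adjusted p = 0.037, edgeR). The full-length forms carried most of the gene's reads and had smaller differences. The most abundant one stood at 66.4 and 88.5 CPM against 107.9 and 95.5 CPM, with a log2 fold change of 0.39 (SE 0.23, adjusted p = 0.314, edgeR).

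The catalytic head genes atp5a1 and ATP5B had the highest levels per length of all 97 genes, at means of 258.7 and 253.5 RPKM. atp5a1, the alpha subunit, stood at 393.1 and 424.8 CPM against 643.9 and 610.3 CPM, with a log2 fold change of 0.62 (SE 0.20, adjusted p = 0.101, edgeR). ATP5B, the beta subunit, stood at 361.7 and 475.9 CPM against 540.8 and 547.0 CPM, with a log2 fold change of 0.38 (SE 0.22, adjusted p = 0.319, edgeR). In both genes the groups were apart and neither passed the test. Several membrane and stalk genes were close to level, among them atp5o at 80.7 and 98.3 CPM against 99.6 and 82.8 CPM and atp5h at 73.3 and 89.7 CPM against 84.9 and 74.3 CPM.

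The 4 calls rested on few libraries. Without control 1, control 2 or knockdown 1, none of these 4 calls was kept. Among all genes 0.0%, 1.21% and 6.07% were called in those fits. Without knockdown 2, 5 members and 14.1% of all genes were called, including NDUFC2 and cox4i2, and atp5j was not (adjusted p = 0.0656, edgeR). Over these 4 fits the log2 fold change ran from -1.4 to -1.02 for ndufa4 and from 1.23 to 1.69 for NDUFA13. It ran from 1.10 to 1.36 for the short atp5g transcript and from 0.84 to 1.11 for the called atp5j transcript. In all 4 the groups did not overlap, so leaving out 1 library could hardly turn a direction. With counts summed per gene, 0 members passed against 3.89% of all genes. In that fit 16 and 2 members had an unadjusted p under 0.05 on the higher and lower side, and the share of all genes with such a p is not given. NDUFA13 and ndufa4 then had log2 fold changes of 1.47 and -1.21 (adjusted p = 0.0594 for both, edgeR), atp5j of 0.71 (adjusted p = 0.0834) and atp5g of 0.42 (adjusted p = 0.281).

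**Figure D3:**
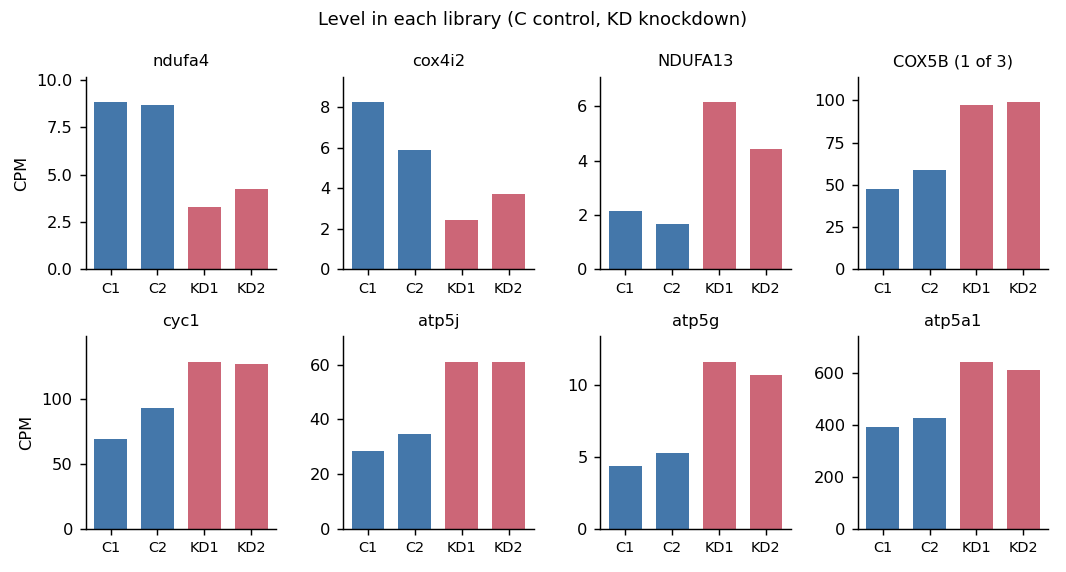
Level in CPM (vertical axis from 0, a scale for each gene) in each library for 8 genes of complexes I, III, IV and V, with controls in blue and knockdown libraries in red; atp5j and atp5g show the transcript that passed. Only ndufa4 and cox4i2 have both knockdown bars below both control bars, at 3.29 and 4.24 CPM for ndufa4 and 2.41 and 3.73 CPM for cox4i2.

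Several subunits are encoded by more than 1 zebrafish gene, and the copies differed in level and in fold change. Subunit 4 of complex IV has the form cox4i1 and the form cox4i2, which in mammals is linked to low oxygen and the lung. cox4i2 stood at 8.23 and 5.86 CPM in the controls, against 2.41 and 3.73 CPM in the knockdown group. Both knockdown libraries were below both controls, but its log2 fold change of -1.19 did not pass (SE 0.33, adjusted p = 0.0676, edgeR). Per length cox4i2 averaged 4.77 RPKM, far below the 172.2 RPKM of cox4i1. The difference between the fold changes of these copies was not tested.

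Subunit 5A also had copies of unequal level. cox5ab stood at 18.5 and 19.5 CPM against 35.1 and 31.3 CPM, with groups apart and a log2 fold change of 0.80 (SE 0.22, adjusted p = 0.0657, edgeR). cox5aa stood at 86.5 and 110.5 CPM against 122.3 and 111.1 CPM, with a log2 fold change of 0.25 (SE 0.22, adjusted p = 0.519, edgeR). The entry COX5A (1 of 3) had nearly the values of cox5aa, and reads on both hit 3.17 transcripts each on average, so the pair cannot be separated. Likewise uqcrfs1 and UQCRFS1 (2 of 2) shared reads, at 1.68 and 2.00 hits per read, and ndufv3 occurred under 2 gene identifiers with similar levels.

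Other copies were far apart in level. sdhdb averaged 11.8 RPKM and sdhda 0.16 RPKM, with 0 and 7 counts of sdhda in the controls and 9 and 12 in the knockdown libraries. COX5B (1 of 3) averaged 115.1 RPKM, whereas COX5B (2 of 3) averaged 0.47 and cox5b2 0.338. cox7a2 averaged 49.2 RPKM and COX7A2 (2 of 2) 13.8. In these sets 1 copy thus supplied most of the reads per length, in all 4 libraries.

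Copies of the e subunit and the c subunit of complex V were closer to each other. atp5ia averaged 63.0 RPKM and atp5ib 60.6. atp5ia stood at 42.6 and 43.3 CPM against 35.9 and 31.0 CPM, the one subunit gene of complex V with both knockdown libraries below both controls, and its log2 fold change was -0.36 (SE 0.22, adjusted p = 0.323, edgeR). atp5ib stood at 42.0 and 33.6 CPM against 53.4 and 41.1 CPM, with overlapping groups and a log2 fold change of 0.32 (SE 0.24, adjusted p = 0.431, edgeR). Of the c subunit genes, ATP5G1 averaged 152.4 RPKM, atp5g 110.4 and ATP5G3 (2 of 2) 71.8. In CPM all 3 had both knockdown libraries above both controls, as had 29.8% of all genes. For ATP5G1 the gap was narrow, at 97.5 and 119.2 CPM against 132.9 and 119.9 CPM. Reads of atp5g and ATP5G3 (2 of 2) were shared with other transcripts, at 2.05 and 1.64 hits per read.

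**Figure D4:**
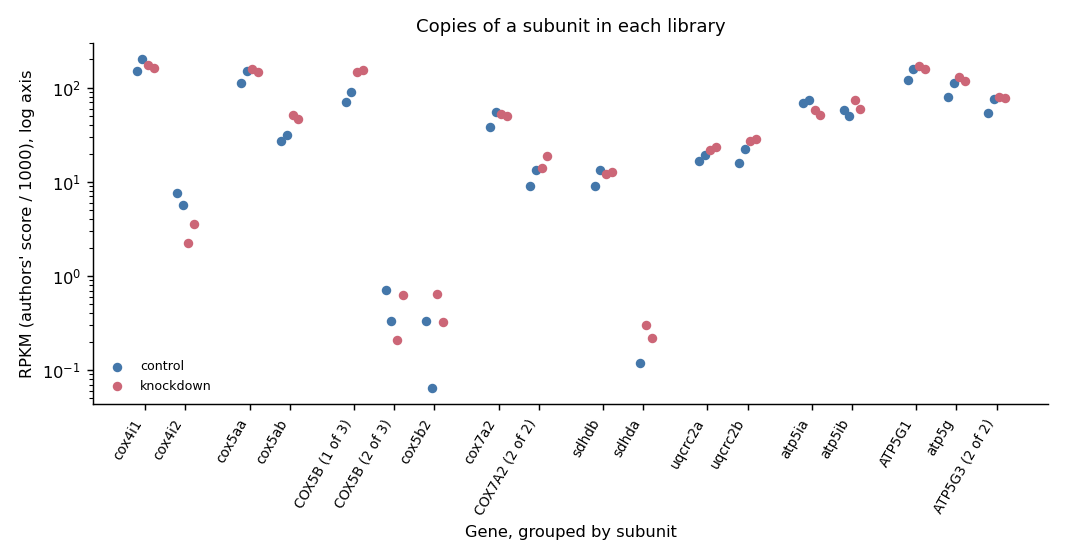
Level per length in RPKM (log axis) in each library for genes that encode copies of 1 subunit, controls in blue and knockdown libraries in red, with libraries at 0 not drawn. The pairs cox4i1 and cox4i2, at means of 172.2 and 4.77 RPKM, and sdhdb and sdhda, at 11.8 and 0.16 RPKM, lie far apart, whereas atp5ia and atp5ib nearly coincide.

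In the authors' deposited table, which rests on both mates and DESeq, 7 of the 97 genes were higher and 1 was lower at an adjusted p under 0.05. Among all 24505 genes listed there, 3.81% were higher and 6.58% lower. The higher ones in the authors' deposited table were atp5g, NDUFB3, cyc1, atp5j, COX5B (1 of 3), NDUFA13 and cox5ab, and the lower one was ndufa4. All 4 genes called by edgeR were thus called there too, from the same libraries. For the called transcript of atp5g the authors' deposited table gives a log2 fold change of 1.27 and an adjusted p of 0.000647, and for ndufa4 -1.29 and 0.00344.

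The 13 protein genes of mitochondrial DNA, which the name rule does not hold, leaned the other way. Their median log2 fold change was -0.38, and in 9 of the 13 both knockdown libraries lay below both controls, with 1 above, where 32.3% of all genes lay below and 29.8% above. None passed by edgeR, though 5 had an unadjusted p under 0.05 on the lower side, against 17.9% of all genes. DESeq2 called 2 lower, against 9.64% of all genes. limma called 0 at both pseudocounts. Their median log2 ratio to the control mean was -0.06 and 0.06 in the controls and -0.29 and -0.46 in the knockdown libraries. Their share of split reads was 2.82% and 3.12% against 2.65% and 2.56%, so the groups did not overlap. The difference between nuclear and mitochondrial genes was not tested.

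The ATP synthase genes of mitochondrial DNA had the lowest values. mt-atp6, the subunit that forms the proton path, stood at 1998.9 and 1907.8 CPM against 1154.5 and 1002.9 CPM, with a log2 fold change of -0.86 (SE 0.21, adjusted p = 0.0509, edgeR). mt-atp8, its neighbour in the membrane, stood at 94.0 and 118.9 CPM against 60.3 and 52.0 CPM, with -0.92 (SE 0.23, adjusted p = 0.0502, edgeR). Both had control libraries well above the knockdown libraries and lay just over the threshold. Among mitochondrial complex I genes, mt-nd4l had a log2 fold change of -0.62, mt-nd2 of -0.55, mt-nd4 of -0.50 and mt-nd1 of -0.43, with adjusted p-values of 0.1 to 0.233 by edgeR.

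The catalytic subunit gene of complex IV, mt-co1, was the exception, at 2669.5 and 3222.2 CPM against 3547.3 and 3692.4 CPM. Both knockdown libraries lay above both controls, and its log2 fold change was 0.30 (SE 0.22, adjusted p = 0.42, edgeR). mt-co2 and mt-co3, the other core genes of complex IV, had log2 fold changes of -0.15 and -0.11. The complex III gene mt-cyb was level, at -0.04 (SE 0.21). The lowest single values in mitochondrial DNA were thus those of complex V genes. Among the nuclear genes complex IV had the lowest median, 0.25. Over nuclear subunit genes alone, the medians of complexes IV, I and V were nearly level, at 0.31, 0.32 and 0.33.

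**Figure D5:**
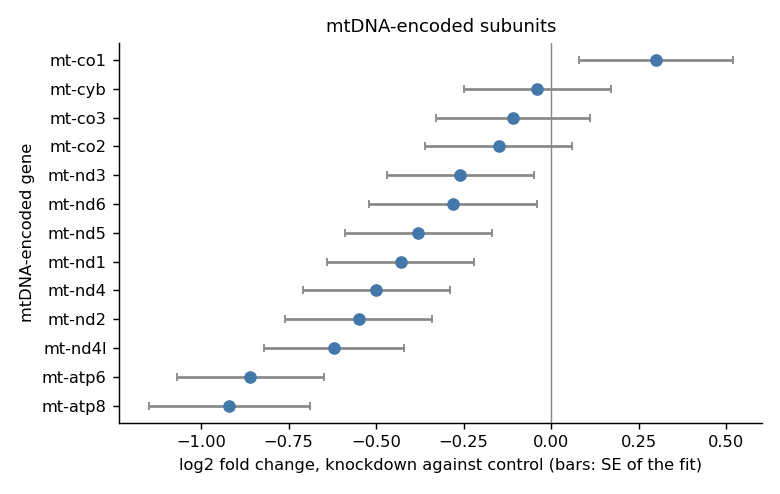
Log2 fold change of knockdown against control (horizontal axis, points) with the SE of the fit (bars) for the 13 protein genes of mitochondrial DNA, ordered by value. mt-atp8 and mt-atp6 lie lowest at -0.92 and -0.86, and mt-co1 is the one gene above 0, at 0.30.

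Lists of genes that build and feed the respiratory chain had medians above 0, and a few of their genes passed the test, where 2.37% of all genes were called higher and 5.7% lower. limma with a pseudocount of 1 called 0 of the assembly factors, electron carrier genes, import genes and biogenesis regulators and 1 gene of the tricarboxylic acid cycle list. Of 35 tested assembly factors outside the name rule, 1 rose and 0 fell, and the median log2 fold change was 0.52. The gene that rose, atpaf2, an assembly factor of the ATP synthase head, stood at 5.60 and 7.31 CPM against 16.1 and 12.3 CPM (log2 fold change 1.13, SE 0.28, adjusted p = 0.0493, edgeR). Of 15 genes for electron carriers and the enzymes that make or reduce them, 2 rose and 0 fell, with a median of 0.34. These were COQ2, an enzyme of ubiquinone synthesis, at 6.65 and 9.48 CPM against 19.1 and 18.2 CPM, and dhodh, which passes electrons from pyrimidine synthesis to ubiquinone, at 6.90 and 5.61 CPM against 16.0 and 11.6 CPM.

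Of 30 genes of the tricarboxylic acid cycle and pyruvate dehydrogenase, 2 rose and 0 fell, and the median was 0.19. Of these 30, 10 had an unadjusted p under 0.05 on the higher side and 3 on the lower, against 12.9% and 17.9% of all genes. DESeq2 called 4 higher and 1 lower, against 6.23% and 9.64% of all genes. dlst, a subunit of the oxoglutarate dehydrogenase complex, stood at 50.5 and 49.3 CPM against 107.3 and 88.0 CPM, and fh, fumarase, at 47.1 and 54.7 CPM against 111.0 and 86.3 CPM. In both genes the groups were far apart and knockdown 1 was the highest library. Of 23 genes for protein import into mitochondria 1 rose, with a median of 0.40. This was timm50, a receptor of the inner membrane translocase, at 11.4 and 14.3 CPM against 38.0 and 24.4 CPM.

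Of 17 regulators of mitochondrial biogenesis, 3 rose and 0 fell, with a median of 0.37, where 2.37% of all genes rose and 5.7% fell. pprc1, a coactivator of the PGC-1 family, stood at 18.5 and 31.5 CPM against 101.4 and 55.0 CPM and rose by 1.65 on the log2 scale (SE 0.36, adjusted p = 0.0395, edgeR). yy1b, a copy of the transcription factor YY1, stood at 25.5 and 19.5 CPM against 48.8 and 46.2 CPM and rose by 1.08 (SE 0.24, adjusted p = 0.0385, edgeR). ppargc1b, another PGC-1 family coactivator, rose by 1.04 in 1 transcript (SE 0.25, adjusted p = 0.0484, edgeR), while its most abundant transcript had a log2 fold change of 0.72 and did not pass.

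Glycolysis did not lean upward. Of 23 tested genes, 0 rose and 3 fell, where 2.37% of all genes rose and 5.7% fell. The median log2 fold change was 0.03. eno2, the enolase of mammalian neurons, stood at 24.6 and 15.8 CPM against 2.39 and 4.08 CPM and fell by 2.64 on the log2 scale (SE 0.36, adjusted p = 0.0203, edgeR). pgam1b, a phosphoglycerate mutase, stood at 14.4 and 12.2 CPM against 4.46 and 7.01 CPM, and 1 transcript of it fell by 1.30 (SE 0.30, adjusted p = 0.0456, edgeR). ldhbb was called lower through 1 transcript while its most abundant transcript had a log2 fold change of 0.35, so its direction depends on the transcript.

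The remaining lists held 0 called genes by edgeR. Of 11 genes for ATP and phosphate exchange and outer membrane pores, unadjusted p was under 0.05 for 1 on each side, and the median was 0.12. In that list slc25a5, an ADP/ATP carrier, stood at 802.6 and 1095.9 CPM against 614.4 and 690.1 CPM (log2 fold change -0.54, SE 0.24, adjusted p = 0.181, edgeR). Of 14 uncoupling and antioxidant genes, unadjusted p was under 0.05 for 2 on each side, and the median was 0.27. Of all genes, 12.9% had such a p on the higher side and 17.9% on the lower. DESeq2 and limma at both pseudocounts also called 0 in both lists.

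Marker genes of several cell types moved with the groups, and their part in the values of the respiratory chain genes was not tested. By edgeR 5.7% of all genes fell and 2.37% rose. Of 10 tested photoreceptor markers 6 fell, the median log2 fold change was -4.22, and their summed level was 513.5 and 346.2 CPM in the controls, against 27.8 and 136.3 CPM in the knockdown group. The opsin gene opn1sw1 had 0 CPM in both knockdown libraries, and rho stood at 49.0 and 47.2 CPM against 0 and 0.109 CPM. Of 10 neuron markers 7 fell, with a median of -1.64 and sums of 820.4 and 552.8 CPM against 220.3 and 292.9 CPM. Of 14 epidermis markers 11 fell, with a median of -2.46 and sums of 1930.5 and 2051.4 CPM against 636.4 and 246.1 CPM.

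Of 11 lens markers 9 rose, with a median of 1.90 and sums of 409.9 and 497.1 CPM against 2120.2 and 1217.4 CPM. For comparison, 2.37% of all genes rose and 5.7% fell by edgeR. Of 7 progenitor markers 3 rose, with a median of 0.91 and sums of 6289.8 and 7569.7 CPM against 7150.1 and 8367.2 CPM. In both lists, as in the respiratory chain genes, the groups' sums or medians leaned upward, and the progenitor sums overlapped. Muscle, a tissue rich in respiratory chain RNA, had 1 of 15 markers lower and 0 higher, and sums of 74.7 and 92.4 CPM against 58.0 and 74.9 CPM. Erythroid markers had 1 of 7 higher, leukocyte markers 1 of 8 lower, and none of 9 pigment cell markers passed by edgeR, by DESeq2 or at an unadjusted p under 0.05.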

How the data were processed

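Poly-A RNA of 4 retina libraries was analysed from the deposited tables. The names of the authors' files point to bowtie and to zebrafish cDNA of Ensembl release 66, and the genome build is not given in the sources used here. Per the file headers, the deposited table of a library gives raw counts of alignments to each transcript, for 1 mate and for both, and estimated counts that split each read over its hits, at 1.89 to 2.01 hits per read. The authors' table called raw holds a score that equals 1000 times the RPKM of both mates, since 98.8% to 99.7% of 43156 values per library came back within 1 unit when recomputed with lengths solved from the same values. Of 14238 such lengths 71.0% were whole to within 0.1. The comparison that the authors deposited has log2 fold changes and adjusted p-values per transcript, and the submitters' processing notes name DESeq without a version.

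Counts of 1 mate were compared in edgeR 4.0.16 under R 4.3.3, by the quasi-likelihood test after filterByExpr and TMM scaling, with no block. P-values were adjusted over 37012 transcripts of 20875 genes, and the threshold was 0.05. A called gene has the direction of the transcript whose p is smallest, and values shown are those of its most abundant tested transcript unless another is named. Counts of genes at an unadjusted p take each gene at its transcript with the smallest p, which can be a minor one. The SE equals the absolute log2 fold change over the square root of F. Levels are CPM on the TMM scale, and genes were compared with each other only by RPKM, the score divided by 1000. Of the tested members, 33 had at least 1.5 hits per read, and their values are uncertain. DESeq2 1.42.0 and limma 3.58.1 were alternatives. Genes named are those called, the 2 highest per length and the largest and smallest fold changes in each complex, and copies of a subunit; others were picked after their values were seen. The values of 1 member are not reported here. The members and lists were chosen with earlier results of these data known. With 2 libraries a group, p-values set a difference against the spread between these libraries. edgeR estimates that spread with help from all tested transcripts.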

Additional observations from a re-analysis of the deposited data

How the results depend on the processing

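The count of members called by edgeR, 4 with 3 higher and 1 lower, changed with the processing. It was 10 (8 higher, 2 lower) with no filter, 13 (11 and 2) with DESeq2, 13 (11 and 2) at an adjusted p under 0.10, 9 (8 and 1) with split reads and 7 (6 and 1) in limma with a pseudocount of 100 on the score. It was 0 in limma with a pseudocount of 1 and 0 with counts summed per gene, where 22 and 16 members were higher and 2 and 2 lower at an unadjusted p under 0.05. In those fits 12.1%, 15.9%, 18.3%, 12.1%, 9.42%, 2.41% and 3.89% of all genes were called. The share of all genes at an unadjusted p under 0.05 is not given for them. With both mates 6 members were called (5 higher), where 8.04% of all genes were called and 2.5% called higher. Calls with 1 library left out are given above, beside the share of all genes. In those fits the median log2 fold change of the members ran from 0.25 to 0.44, and that of all genes from -0.05 to -0.01. The cause of these shifts was not tested.

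Samples of the 2 groups shared only a replicate number: deviations of same-numbered samples correlated at -0.0718 across transcripts. With the replicate block, 6 members were called, 5 of them higher, and 2 mitochondrial DNA genes; of all genes 11.1% were called, 3.31% higher and 7.82% lower.

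The medians by complex stayed above 0 in each setting tried. Complex I had a median of 0.48 and complex IV of 0.43 without control replicate 2, and complex II had 0.54 when each gene was taken at its transcript with the smallest p. Leaving out 1 library in turn, the medians ran from 0.25 to 0.48 in complex I, 0.40 to 0.43 in II, 0.30 to 0.58 in III, 0.11 to 0.43 in IV and 0.17 to 0.38 in V. Upper-quartile scaling moved the median of all genes by under 0.1.

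For mitochondrial DNA, alternatives were chosen after seeing the data. Called genes, 0 in the edgeR fit, were 2 (both lower, mt-atp6 and mt-atp8) with no filter, DESeq2, upper-quartile scaling or split reads. They were also 2 with the replicate block or an adjusted p under 0.10, and 1 lower (mt-atp8) with the stricter filter. In those settings 6.34% to 11.5% of all genes were called lower. Neither gene passed with both mates, with counts summed per gene or in limma at either pseudocount. Leaving out 1 library in turn, the log2 fold change ran from -0.94 to -0.76 for mt-atp6 and from -1.06 to -0.74 for mt-atp8. In mt-atp6 and mt-atp8 the groups did not overlap, so the direction of these calls could hardly reverse in these settings. The planned search of promoters was not run, since no sequence was used here.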
